A study of Mus musculus with 18 samples.

Results

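Liver-type plasma proteins are secreted carriers and inhibitors that hepatocytes release into the blood. The genes described here are Afp, Alb and Gc of the albumin family, Rbp4 and Ttr, whose proteins carry retinol and thyroid hormone, and Ambp, the precursor of alpha-1-microglobulin and of the protease inhibitor bikunin. They were chosen by name, because Afp is among the largest increases in reporter-low intestinal crypt cells, so the values of the low gate that chose them are described without a test. Of the 6 genes, 5 had a probe set with that gene symbol on the array, 1 each, of 19938 genes measured in all. No probe set carried the symbol Gc in the platform annotation used here, and that gene is not analysed.

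Expression was measured on 1-colour microarrays in small intestinal crypt cells of C57Bl6/J mice aged 4 months, sorted by the brightness of Venus, a fluorescent reporter of Flattop (Cfap126). The gates were reporter-low, reporter-high and reporter-negative, with 2 arrays each, and each array held RNA pooled from 2 animals. All gates came from FltpZV/+ mice, so cells without signal carried the reporter allele too, and whether gates with 1 replicate number came from the same animals is not stated in the labels. The other 12 of the 18 samples, from a lineage-tracing line, have empty columns in the table used here and are not analysed.

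In the adult, hepatocytes are the main source of albumin, transthyretin (Ttr), retinol-binding protein (Rbp4) and the Ambp product. Alpha-fetoprotein (Afp) is the albumin-like protein of the fetal liver and yolk sac, and mouse liver shuts the gene off after birth. Retinol-binding protein leaves the cell with retinol and circulates bound to transthyretin. Transthyretin is also made outside the liver, for example in the choroid plexus and in glucagon cells of the pancreatic islets.

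The deposited values are RMA values on the log2 scale, so that a difference of 1 is a doubling. A background level of 4.23 was taken from 1203 genes for smell, pheromone and trace amine receptors, as the 95th percentile of their means. The median over genes lay between 4.82 and 4.95 on the 6 arrays. The high pair was the least alike in the share of genes above background, with 65.4% on replicate 1 and 69.4% on replicate 2, against 61.3% to 63.0% on the low and negative arrays. With so few arrays a gate, precision is limited throughout.

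Afp had the largest low minus negative difference of all 19938 genes. Its value was 11.34 and 11.93 on the low arrays, 4.20 and 4.99 on the high arrays, and 3.77 and 3.95 on the negative arrays. Both low arrays stood far above the others, 1 of the 2 high arrays lay above background, and neither negative array did. The gate means were 11.64 ± 0.41 in low cells, 4.60 ± 0.56 in high cells and 3.86 ± 0.13 in negative cells (SD, n = 2 each). The low minus negative difference was 7.78 ± 0.32 (SE of the fit), and measured against the background level it was at least 7.40, or at least 169-fold. The low minus high difference was 7.04 ± 0.32. In sorted bulk samples, fewer cells of a type and less RNA per cell cannot be told apart.

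**Figure D1:**
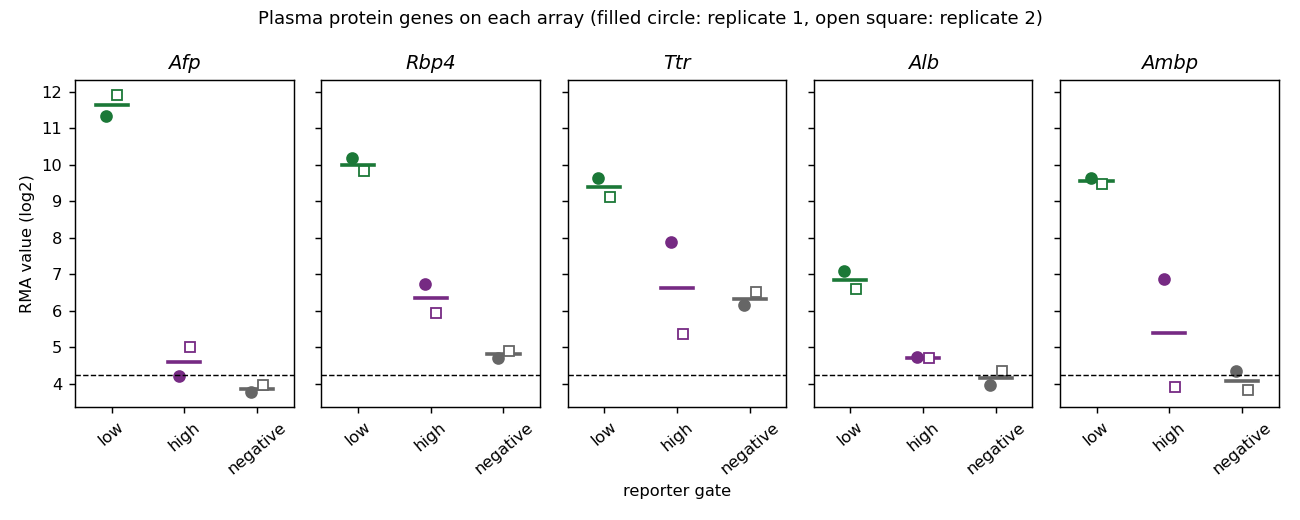
RMA values (log2, vertical axis) of the plasma protein genes in the low, high and negative gates, with a filled circle for replicate 1, an open square for replicate 2, a bar for the gate mean and a dashed line at the background level of 4.23. Both low arrays lie above all others for each of the 5 genes, and the 2 high arrays lie far apart for Ttr and Ambp.

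Alb and Afp lie next to each other on chromosome 5 in the GRCm38.p6 gene table, and the next gene beyond Afp is Afm, which encodes afamin, another albumin relative. The upstream sequences of this pair are shown because the 2 neighbouring family members were both higher in low cells, by different amounts. Each is the 250 bases before the annotated start, on the plus strand, from RefSeq (GRCm38.p6), at chr5:90490464-90490713 for Afp and chr5:90460620-90460869 for Alb. Capitals mark GTTAAT, a half-site of the liver factor HNF1, and TATAAA, the letters of a TATA box motif.
Afp: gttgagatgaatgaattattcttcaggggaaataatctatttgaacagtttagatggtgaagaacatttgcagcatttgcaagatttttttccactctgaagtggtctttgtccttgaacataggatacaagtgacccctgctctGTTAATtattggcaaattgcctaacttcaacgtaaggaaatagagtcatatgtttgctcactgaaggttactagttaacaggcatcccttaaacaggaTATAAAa
Alb: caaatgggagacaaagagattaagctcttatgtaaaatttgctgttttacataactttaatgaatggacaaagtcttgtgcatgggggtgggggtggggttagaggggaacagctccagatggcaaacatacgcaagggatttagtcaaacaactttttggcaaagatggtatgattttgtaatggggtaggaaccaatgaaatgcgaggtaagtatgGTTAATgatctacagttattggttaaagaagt
GTTAAT stood 105 to 100 bases before the start in Afp and 32 to 27 bases before it in Alb. Searched on both strands as GTTAAT or ATTAAC, it was present in 6.43% of 32851 promoter windows of the same length. TATAAA, searched on the coding strand, was found 7 to 2 bases before the annotated start in Afp, nearer to it than a TATA box usually lies, and in 7.59% of all windows. A C/EBP motif, TTGCNNAA or TTNNGCAA, was present in both windows and in 9.56% of all, and it overlapped neither capital stretch. A FOXA motif, TGTTTAC or GTAAACA, was found in neither, and in 3.17% of all windows. The windows of Ambp (GRCm38.p6, chromosome 4) and of the outer of 2 Rbp4 starts (chromosome 19) held neither GTTAAT nor TATAAA, and the Rbp4 window held the FOXA motif. A match is a description of these letters, and binding was not measured.

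Alb, which encodes serum albumin, had the smallest low minus negative difference of the 5 genes. Its value was 7.09 and 6.58 on the low arrays, 4.72 and 4.70 on the high arrays, and 3.95 and 4.34 on the negative arrays. The low arrays did not overlap with the rest, and 1 of 2 negative arrays lay above background. The low minus negative difference was 2.69 ± 0.24 (SE), a 6.46-fold change, and low minus high was 2.13 ± 0.24.

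The other genes around Afp on chromosome 5 were not called in low cells. These neighbours were looked up after values had been seen. Afm had 3.43 and 3.29 in low cells, 3.74 and 3.95 in high cells, and 3.59 and 3.26 in negative cells, below background throughout. Of the 5 protein-coding genes on each side of Afp, all were measured. The 9 besides Alb did not pass in any of the 3 comparisons (limma adjusted p from 0.161 to 0.972). Over all genes, 3.42% rose and 2.54% fell in low against negative cells, so 9 genes could hold no call. On the Alb side, the low minus negative difference of Ankrd17 was 0.36, of Cox18 -0.39, of Adamts3 -0.35 and of Npffr2 -0.10. Beyond Afp it was -0.06 for Afm, -0.04 for Albfm1, 0.57 for Rassf6, -0.20 for Cxcl5 and 0.11 for Ppbp. Npffr2, Albfm1 and Ppbp were, like Afm, below background on all arrays. Cxcl5 was above it on high replicate 2 only, at 4.41. The differences of these genes between low and negative cells are therefore between values at the floor.

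Rbp4, the blood carrier of retinol, differed by 5.20 ± 0.30 between low and negative cells, a 36.9-fold change. It had 10.19 and 9.82 in low cells, 6.73 and 5.94 in high cells, and 4.70 and 4.90 in negative cells. The gates followed the order low, high and negative with no overlap, and all arrays were above background. Low minus high was 3.67 ± 0.30.

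Ttr, whose product carries thyroxine and holds retinol-binding protein in the blood, was above background on all 6 arrays. It had 9.65 and 9.11 in low cells, 7.89 and 5.35 in high cells, and 6.14 and 6.50 in negative cells. The 2 high arrays enclosed both negative arrays, so high and negative cells were not ordered. Low minus negative was 3.06 ± 0.73 (SE), an 8.32-fold change, and low minus high was 2.76 ± 0.73.

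Ambp had 9.63 and 9.47 in low cells, 6.86 and 3.90 in high cells, and 4.33 and 3.83 in negative cells. The low pair was close, while 1 high array lay within the negative range and the other well above it. Only 1 of 2 negative arrays was above background. Low minus negative was 5.47 ± 0.83 (SE), a 44.4-fold change, and low minus high was 4.17 ± 0.83. Ttr and Ambp had the widest SE of the 5 genes, since the fit pools the spread of all gates, the high pair included.

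The low arrays were above the negative arrays with no overlap for 5 of 5 measured genes, and 23.0% of all genes were ordered this way. They were above the high arrays for 5 of 5, against 20.4% of all genes. Both contrasts contain the low arrays on which Afp was picked, so these counts describe the choice. The median low minus negative difference was 5.20 over the 5 genes and -0.03 over all genes.

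**Figure D2:**
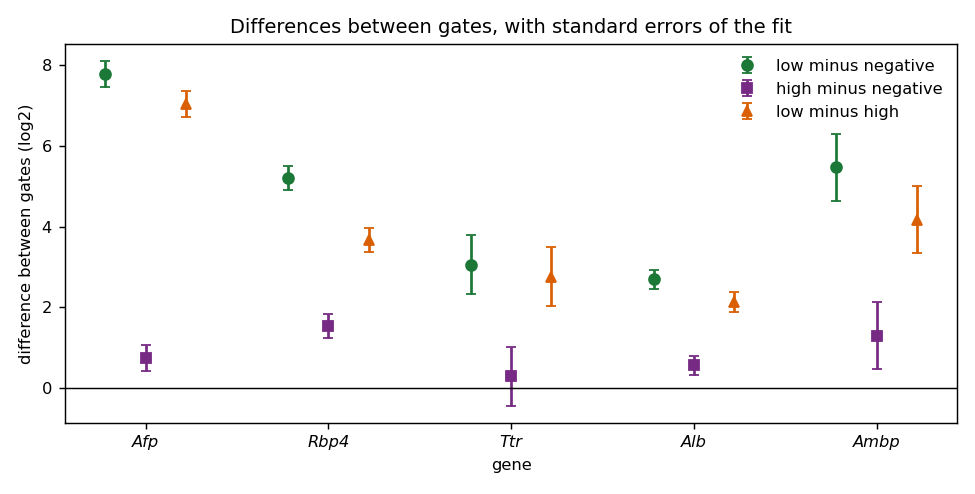
Difference between gates (log2, vertical axis) for each plasma protein gene, with error bars for the standard error of the fit, for low minus negative (circles), high minus negative (squares) and low minus high (triangles). The low minus negative difference runs from 2.69 for Alb to 7.78 for Afp, and the fitted high minus negative difference from 0.30 for Ttr to 1.53 for Rbp4.

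The comparison of high with negative cells did not choose the genes, although it uses the same negative arrays, and it was tested. Rbp4 rose by 1.53 ± 0.30 (SE, 95% interval from 0.83 to 2.24, limma adjusted p = 0.039), a 2.89-fold change, and was higher on 2 of 2 high arrays. This call was lost without negative replicate 1 (limma adjusted p = 0.225), without negative replicate 2 (0.179) and with only the 2 gates in the fit (0.0646). The remaining 4 genes did not pass. Afp, whose negative arrays were both below background, had a fitted difference of 0.74 ± 0.32 (from -0.02 to 1.50, limma adjusted p = 0.237). With the negative gate at background, its point estimate was at least 0.36, but high replicate 1 itself lay below background at 4.20. Alb differed by 0.56 ± 0.24 (from -0.01 to 1.14, limma adjusted p = 0.233). Ttr differed by 0.30 ± 0.73 (from -1.44 to 2.03, limma adjusted p = 0.828) and Ambp by 1.30 ± 0.83 (from -0.68 to 3.28, limma adjusted p = 0.392). Thus 1 of 5 genes rose, beside 1.36% of all genes, and the median difference was 0.56 over the 5 genes with Afp at its bound (0.74 as fitted) and 0.10 over all genes. The high arrays lay above the negative arrays with no overlap for Afp, Rbp4 and Alb, 3 of 5 genes, beside 32.9% of all genes.

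For Ttr and Ambp the result in high cells depended on the array. High replicate 1 exceeded replicate 2 by 2.54 for Ttr and by 2.96 for Ambp, and only 0.191% and 0.0702% of all genes had a gap as large in either direction. Rbp4 was also higher on replicate 1, by 0.79, Alb differed by 0.01, and Afp was lower there by 0.79. Without high replicate 1 the high minus negative difference was -0.97 for Ttr and -0.18 for Ambp, and without high replicate 2 it was 1.57 and 2.78, the last with limma adjusted p = 0.0173. For Afp, high replicate 2 was above background and high replicate 1 was not.

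Most markers of 3 epithelial cell types were also higher on high replicate 1. Over 12 enteroendocrine genes the mean value was 9.77 and 9.54 on the low arrays, 5.78 and 5.26 on the high arrays, and 4.63 and 4.60 on the negative arrays. On high replicate 1, 9 of the 12 were above replicate 2, with Cpe, a prohormone-trimming carboxypeptidase, at 7.42 against 4.87, and the median gap was 0.41. Of the enterocyte markers 8 of 10 were higher on replicate 1, with a median gap of 0.39, and of the Paneth markers 8 of 9, with a median gap of 0.16. Of the leukocyte markers it was 3 of 10, with a median of -0.12. Over all genes, 8689 of 19938 were higher on replicate 1. All 12 enteroendocrine genes rose by limma in low against negative cells, with a median of 5.17, beside 3.42% of all genes. All 12 also rose in low against high cells, beside 3.89% of all genes. None of the 12 passed in high against negative cells by limma, beside 1.36% of all genes higher. At an unadjusted p under 0.05, 8 of the 12 were higher there, beside 1851 of all 19938 genes. The part of any of these cell types in the Ttr and Ambp values was not tested.

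**Figure D3:**
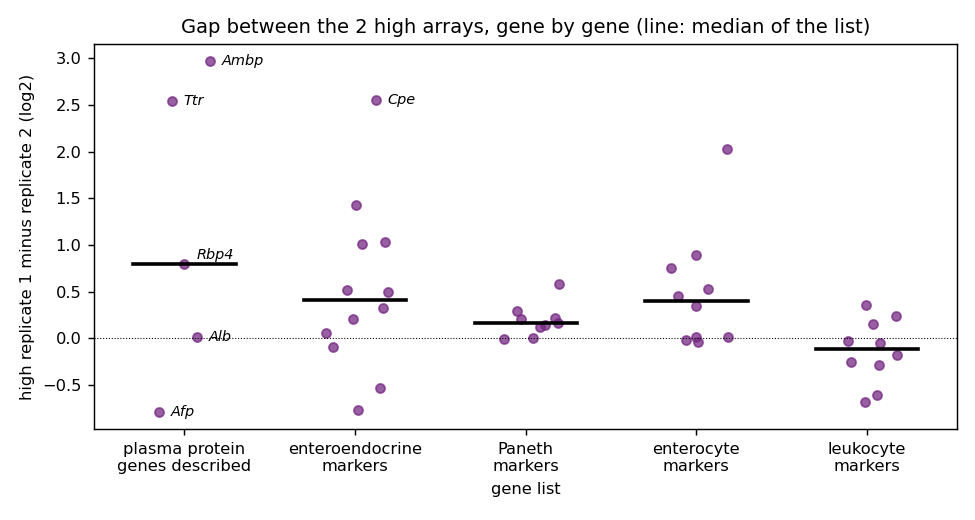
High replicate 1 minus high replicate 2 (log2, vertical axis) for each plasma protein gene and for the markers of 4 cell types, with 1 point a gene and a bar at the median of each list. Ambp at 2.96 and Ttr at 2.54 have the widest gaps among the plasma protein genes, Cpe is the widest among the enteroendocrine markers, and the medians are 0.41 for enteroendocrine, 0.16 for Paneth, 0.39 for enterocyte and -0.12 for leukocyte markers.

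Most other plasma protein genes did not pass the test in low cells. Of 57 named, 52 were measured, and 19 of these had no array above background. The gate mean was above background in at least 1 gate for 30, and 15 were above it on both low arrays. In low against negative cells 2 rose and 0 fell by limma, beside 3.42% of all genes higher and 2.54% lower. The list's median difference was -0.03. At an unadjusted p under 0.05, 8 were higher and 0 lower, beside 1827 and 1856 of all 19938 genes. Pzp, pregnancy zone protein, an alpha-2-macroglobulin-like protease inhibitor, had 7.69 and 7.01 in low cells, 3.92 and 3.85 in high cells, and 3.79 and 3.63 in negative cells. It was above background in low cells only and rose by at least 3.12 over negative cells (limma adjusted p = 0.00104) and over high cells (0.00113). Trf, transferrin, the iron carrier of plasma, had 6.79 and 6.98 in low cells, 4.98 and 4.80 in high cells, and 4.51 and 4.36 in negative cells. It rose by 2.45 ± 0.19 over negative cells (limma adjusted p = 0.00151) and by 1.99 ± 0.19 over high cells (limma adjusted p = 0.00275). The calls of both genes held in all 13 alternatives of each comparison. Fibrinogen genes were below background in low cells, with Fga at 3.74 and 3.69, Fgb at 3.52 and 3.60 and Fgg at 3.23 and 3.21. Fga was above background on both high arrays, at 4.47 and 4.89.

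In high against negative cells 1 plasma protein gene of the list rose and 1 fell, beside 1.36% and 3.35% of all genes (272 higher and 667 lower, or 324 and 297 with quantile normalization). At an unadjusted p under 0.05, 7 of the list were higher and 2 lower, beside 1851 and 2579 of all 19938 genes. Apoa2, an apolipoprotein of high-density lipoprotein, rose by 1.07 ± 0.21 (limma adjusted p = 0.043), and Apob, the core protein of chylomicrons, fell by 1.31 ± 0.22 (limma adjusted p = 0.0261). Both calls were lost without either negative array and without high replicate 2, and that of Apoa2 also without high replicate 1. The call of Apoa2 was lost too with the trend prior, only the 2 gates and array weights, and that of Apob with quantile normalization. In low against high cells Pzp and Trf were the 2 that rose, and 0 fell, beside 3.89% of all genes higher and 1.01% lower (776 and 202, or 616 and 326 with quantile normalization). At an unadjusted p under 0.05, 5 of the list were higher and 10 lower, beside 2399 and 2103 of all 19938 genes.

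**Figure D4:**
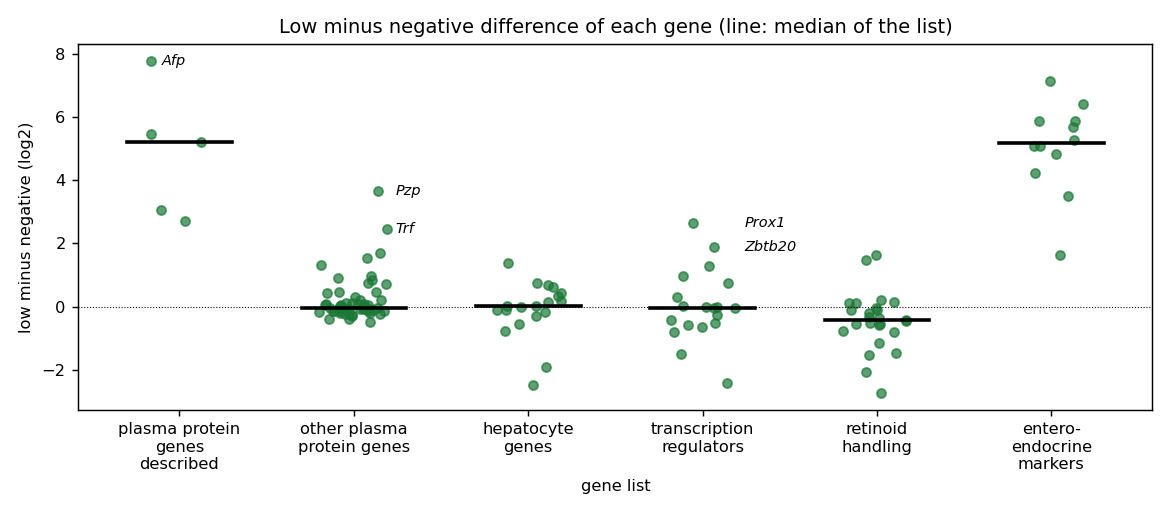
Low minus negative difference (log2, vertical axis) of every measured gene in 6 lists, with 1 point a gene and a bar at the list median. The plasma protein genes described have a median of 5.20, the 52 other plasma protein genes a median of -0.03 with Pzp and Trf above the rest, and the 12 enteroendocrine markers a median of 5.17.

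No measured gene that defines hepatocytes was called higher in low than in negative cells. Of 22 named, 19 were measured. In low against negative cells 0 rose and 2 fell by limma, beside 3.42% and 2.54% of all genes. A list of 19 could hold no rise at that share. At an unadjusted p under 0.05, 3 were higher and 4 lower, beside 1827 and 1856 of all 19938 genes. The urea cycle genes Otc and Cps1, which intestinal epithelium also expresses, fell by 2.46 ± 0.19 (limma adjusted p = 0.00162) and 1.90 ± 0.23 (limma adjusted p = 0.00646), the second call being lost without negative replicate 1 (0.0709) or replicate 2 (0.0712). Of the 19, 10 had a gate mean above background in at least 1 gate, and 8 were above it on both low arrays. The 5 with no array above background were the liver enzyme genes Cyp7a1, Cyp2c29, Tdo2 and Hao1 and the liver transporter gene Slco1b2. Their values lay between 2.67 and 3.84. The mean over the 19 genes was 4.70 and 4.55 in low cells, 4.79 and 4.70 in high cells, and 4.72 and 4.72 in negative cells. In high against negative cells Hpd, a tyrosine breakdown enzyme, rose by 2.37 ± 0.31 (limma adjusted p = 0.0168), and Otc and Cps1 fell by 1.62 ± 0.19 and 1.38 ± 0.23 (limma adjusted p = 0.014 and 0.0261), all lost without either negative array (0.106 to 0.173). The call of Cps1 there was also lost with only the 2 gates in the fit (limma adjusted p = 0.0543). Over all genes, 1.36% rose and 3.35% fell in high against negative cells. In low against high cells 0 of the 19 rose and 0 fell by limma, beside 3.89% and 1.01% of all genes. At an unadjusted p under 0.05, 0 were higher and 3 lower there, beside 2399 and 2103 of all 19938 genes.

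Other cell markers also differed between the gates. Over all genes, 3.42% rose and 2.54% fell by limma in low against negative cells, and 1.36% and 3.35% in high against negative cells. In low against high cells 3.89% rose and 1.01% fell. At an unadjusted p under 0.05, 1851 of all 19938 genes were higher and 2579 lower in high against negative cells. The counts were 2399 and 2103 in low against high cells. The 10 leukocyte genes averaged 8.76 and 8.91 in low cells, 6.07 and 6.20 in high cells, and 7.74 and 7.90 in negative cells. In low against negative cells 8 of them rose by limma and 2 fell, Cd79a and Jchain, so the list mean mixes opposite changes. In high against negative cells 0 rose and 8 fell (1 higher and 9 lower at an unadjusted p under 0.05), and in low against high cells 7 rose and 0 fell (7 and 0 unadjusted). The 9 Paneth genes averaged 11.05 and 11.36 in low cells, 12.20 and 12.01 in high cells, and 8.20 and 7.81 in negative cells, and 8 of them rose in low against negative cells and 9 in high against negative cells. The 10 enterocyte genes averaged 9.44 and 8.58 in low cells, 8.88 and 8.38 in high cells, and 10.17 and 9.76 in negative cells, and 3 fell in low against negative cells and 4 in high against negative cells. The mean of each of these lists was above background in every gate, and their part in the plasma protein values was not tested.

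Among transcription regulators of liver plasma protein genes, 2 rose and 1 fell in low against negative cells, of 19 measured, beside 3.42% and 2.54% of all genes, with a median difference of -0.05. At an unadjusted p under 0.05, 4 were higher and 5 lower, beside 1827 and 1856 of all 19938 genes. Zbtb20, a zinc finger protein that represses Afp in the adult mouse liver, had 7.17 and 7.46 in low cells, 6.23 and 5.35 in high cells, and 5.46 and 5.40 in negative cells. It rose by 1.88 ± 0.31 over negative cells (limma adjusted p = 0.0178) and by 1.53 ± 0.31 over high cells (limma adjusted p = 0.0413). Prox1, a homeobox factor of liver and endocrine development, had 7.08 and 5.76 in low cells, a mean of 5.01 in high cells, and 3.65 and 3.91 in negative cells. Neither negative array was above background, and the rise was at least 2.19 (limma adjusted p = 0.0151). Nr5a2, a nuclear receptor that activates the Afp promoter in liver cells, fell by 2.42 ± 0.34 (limma adjusted p = 0.0117). All 3 calls against negative cells were lost without either negative array (0.059 to 0.125), and that of Zbtb20 also without either low array (0.0639 and 0.108). Against high cells the call of Zbtb20 was lost in 6 of 13 alternatives, among them leaving out either low array or high replicate 2 (0.0503 to 0.195).

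Other regulators did not pass in low against negative cells. Zhx2, another repressor of Afp in the adult mouse liver, had 7.19 and 6.53 in low cells, 6.25 and 5.77 in high cells, and 5.94 and 5.21 in negative cells, a low minus negative difference of 1.29 ± 0.34 (limma adjusted p = 0.084). Hnf4a, a nuclear receptor shared by liver and gut, differed by -0.82 ± 0.32 (limma adjusted p = 0.23). The forkhead genes Foxa1, Foxa2 and Foxa3 differed by 0.95, 0.76 and 0.31, and Zfhx3, whose human counterpart represses AFP, by -0.05 (limma adjusted p from 0.252 to 0.955). In high against negative cells Foxa3 was the 1 regulator that rose, by 1.46 ± 0.18 (limma adjusted p = 0.0155), and it fell by 1.15 ± 0.18 in low against high cells (limma adjusted p = 0.0185). The first call was lost without either negative array (0.117 and 0.139), and the second without either low array and with only the 2 gates in the fit (0.0602 to 0.123). In low against high cells 1 regulator rose and 1 fell, Zbtb20 and Foxa3, beside 3.89% and 1.01% of all genes. In high against negative cells 1.36% of all genes rose and 3.35% fell.

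Of 25 retinoid-handling genes, 2 rose and 2 fell in low against negative cells, beside 3.42% and 2.54% of all genes, and the list's median difference was -0.44. At an unadjusted p under 0.05, 2 were higher and 7 lower, beside 1827 and 1856 of all 19938 genes. Stra6l, a membrane receptor for retinol-binding protein in liver and intestine, had 7.49 and 7.47 in low cells, 6.22 and 6.54 in high cells, and 5.73 and 5.98 in negative cells, and rose by 1.62 ± 0.20 over negative cells (limma adjusted p = 0.00741). Bco1, which cleaves beta-carotene, rose by 1.47 ± 0.24 (limma adjusted p = 0.0176). Rbp7, an intracellular retinol-binding protein, had 6.29 and 6.24 in low cells, 7.73 and 8.18 in high cells, and 8.95 and 9.05 in negative cells, and fell by 2.74 ± 0.21 (limma adjusted p = 0.00151) in low against negative cells, in all 13 alternatives too. Dhrs3, a retinal reductase, fell by 1.16 ± 0.21 (limma adjusted p = 0.025). Without a single array the call of Stra6l was lost in 3 of 4 cases, that of Bco1 in 3 and that of Dhrs3 in 4 (0.0535 to 0.178). The remaining retinol carriers were not called. Rbp2, the retinol-binding protein of enterocytes, had 11.39 and 10.52 in low cells, 10.25 and 9.15 in high cells, and 11.66 and 10.99 in negative cells, and Stra6, the retinol-binding protein receptor of other tissues, had 4.74 and 5.27 in low cells, 4.97 and 5.37 in high cells, and 5.09 and 5.14 in negative cells.

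In high against negative cells 0 retinoid genes rose and 2 fell by limma, beside 1.36% and 3.35% of all genes. At an unadjusted p under 0.05, 1 retinoid gene was higher and 9 lower, beside 1851 and 2579 of all 19938 genes. Dhrs3 fell by 1.10 ± 0.21 (limma adjusted p = 0.0372) and Rbp7 fell by 1.05 ± 0.21 (limma adjusted p = 0.0442). Both calls were lost without either negative array, that of Dhrs3 also without high replicate 2 and that of Rbp7 also without high replicate 1. Both were lost too with the trend prior, with only the 2 gates in the fit and with quantile normalization. Of 13 alternatives the call of Dhrs3 was lost in 6 and that of Rbp7 in 7. In low against high cells 3 rose and 1 fell, beside 3.89% and 1.01% of all genes. These were Stra6l by 1.10 ± 0.20, Bco1 by 1.13 ± 0.24 and Adh1, an alcohol dehydrogenase that oxidises retinol, by 1.19 ± 0.25, and Rbp7, which fell by 1.69 ± 0.21 (limma adjusted p from 0.00782 to 0.0497). All 4 of these calls were lost without either low array, those of Bco1 and Adh1 also without either high array, and that of Stra6l without high replicate 1. Of 13 alternatives, the call of Adh1 was lost in 9, those of Stra6l and Bco1 in 7 each, and that of Rbp7 in 2. For Adh1, Stra6l and Bco1 the losses included array weights and the fit of only the 2 gates.

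Genes for thyroid hormone handling and for vitamin D and plasma protein uptake had few calls, with 9 measured in each list. In each list 3 had no array above background. Over all genes, 3.42% rose and 2.54% fell in low against negative cells, and 1.36% and 3.35% in high against negative cells. In low against high cells 3.89% rose and 1.01% fell, so lists this short could hold no call. Of 9 thyroid hormone genes, 0 passed by limma in any comparison. At an unadjusted p under 0.05, 0 rose and 1 fell in low against negative cells. In high against negative cells 1 rose and 0 fell at that level, and in low against high cells 0 rose and 1 fell. Over all 19938 genes, 1827 were higher and 1856 lower at that level in low against negative cells. The counts were 1851 and 2579 in high against negative cells, and 2399 and 2103 in low against high cells. The receptor gene Thra differed by -0.87 and Thrb by -0.59 between low and negative cells. Of 9 vitamin D and uptake genes, Vdr, the vitamin D receptor, was the 1 that fell in low against negative cells, by 1.31 ± 0.24 (limma adjusted p = 0.0277), and in high against negative cells, by 1.19 ± 0.24 (limma adjusted p = 0.0448). The first call was lost without either negative array or low replicate 2, and the second without any of the 4 arrays compared. The second was lost too with the trend prior, quantile normalization and array weights. In low against high cells 0 of the 9 passed (0 higher and 2 lower at an unadjusted p under 0.05). Lrp2, the megalin receptor that takes up retinol-binding and vitamin D-binding protein in the kidney, lay below background on all 6 arrays, and Cubn, its partner, had 4.10 and 3.93 in low cells, 3.96 and 4.51 in high cells, and 4.33 and 5.83 in negative cells.

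The genes with profiles most like the plasma protein genes were looked up by the root mean square difference of log2 values over the 6 arrays, after each gene's mean was taken off. The search covered 13391 genes with a gate mean above background in at least 1 gate. The plasma protein genes described and predicted genes (Gm, Rik and LOC names) were left out of it. Nearest to Afp were Nts (neurotensin, a gut hormone) at 0.39, Gcg (proglucagon) at 0.69, Rfx6 (a transcription factor of endocrine cells) at 0.92, Tpbg (a membrane glycoprotein) at 0.98 and Tph1, the enzyme that starts serotonin synthesis, at 1.03. Values were centred but not scaled, so near genes share the size of a change as well as its shape. The low arrays on which Afp was picked enter the distance, so its nearest genes describe that choice too. Rfx6, as well as Scg3 and Chgb, is also on the enteroendocrine list. Nts had 11.47 and 10.96 in low cells, 3.94 and 4.32 in high cells, and 3.50 and 4.01 in negative cells. Nearest to Rbp4 were Scg3, a granin-like protein of secretory granules, at 0.20 and Disp2 at 0.30. Nearest to Ambp were Gpx3, a secreted glutathione peroxidase of plasma, at 0.33 and the granin gene Chgb at 0.53. Gpx3 had 9.35 and 9.02 in low cells, 6.04 and 4.18 in high cells, and 4.12 and 3.55 in negative cells, with a wide gap between the high arrays like that of Ambp. Nearest to Alb were Adcy2, an adenylyl cyclase, at 0.14 and Pclo, a scaffold protein of the presynapse, at 0.17, and to Ttr Cd200r2 at 0.58 and Sh2d1b1 at 0.63. By this unscaled distance, Rbp4 and Ambp were the closest pair of plasma protein genes at 0.69, and Afp and Alb the farthest at 2.39. The distance also reflects the size of the rise. Low minus negative was 5.20 for Rbp4, 5.47 for Ambp, 7.78 for Afp and 2.69 for Alb.

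**Figure D5:**
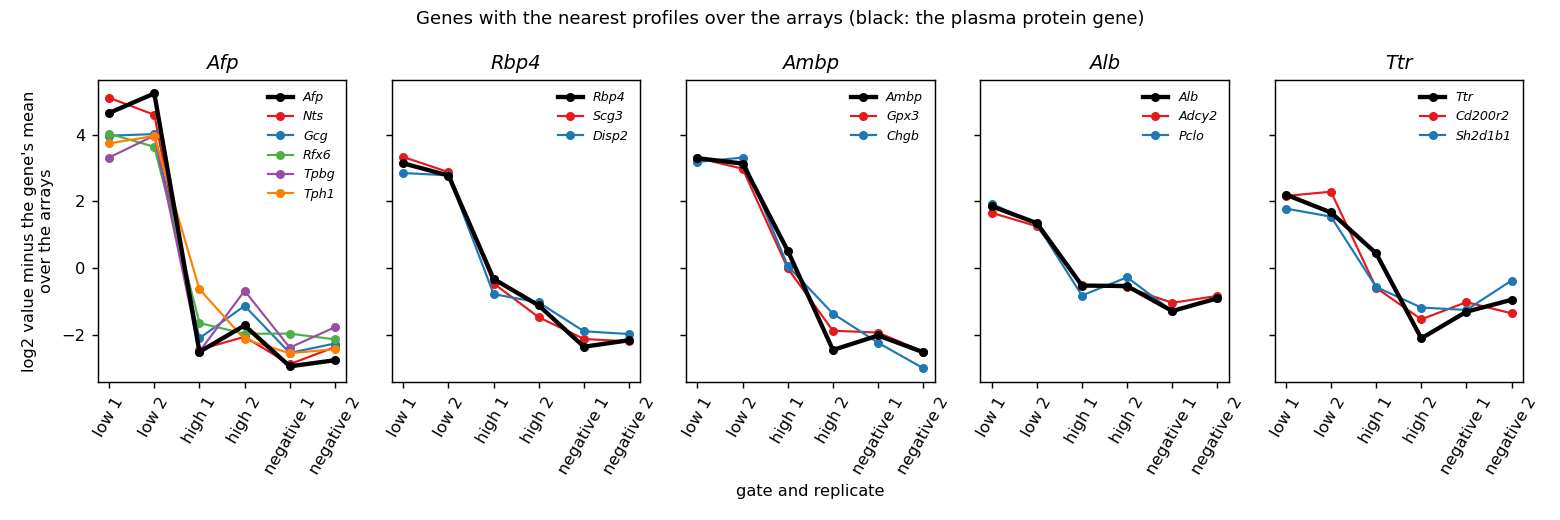
Log2 value of each gene minus its mean over the arrays (vertical axis) on the 6 arrays, with the plasma protein gene in black and its nearest genes in colour. Lines join arrays of unordered replicates only to show the profile. Afp runs closest to Nts at 0.39, Rbp4 to Scg3 at 0.20 and Ambp to Gpx3 at 0.33.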

How the data were processed

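Per the labels' protocols, RNA was purified on a column with DNase, then amplified as whole transcripts, and the product carried a biotin label. The authors made the deposited log2 values with RMA in Affymetrix Expression Console (version 1.3.0.187), which the submitters' processing notes name without its options. RMA compresses differences near the floor. That the scale is log2 was taken from the range of the values.

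Of 35556 probe sets, 21789 had 1 gene symbol, 1621 had several and 12146 were not listed. Symbols were updated by gene ID through the GRCm38.p6 table for 21698, and the probe set with the highest mean stood for each of 19938 genes. Genes were tested with limma 3.58.1 (R 4.3.3) in a single fit of the 3 gates, two-sided, with Benjamini-Hochberg adjustment over all genes and a threshold of 0.05. With 2 arrays a gate, p-values rest on the spread within gates, pooled over the 3 gates and moderated across all genes. This spread may be partly technical. Where no array of the dimmer gate was above background, the change is a lower bound, written "at least". The script was tested on simulated data.

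The genes, lists and tests were chosen with earlier results of these data known. Named genes are the described genes, up to 4 called genes a list and comparison, set regulators and receptors, and the nearest profiles; the fibrinogen values and the chromosome neighbours were added after values were seen. Alternatives covered the prior, the arrays fitted, a dim-gene filter, the mean of probe sets, 2 scalings, array weights, a replicate block and leaving out each array. Python 3.11.15 with pandas 2.3.3 and matplotlib 3.10.9 served for tables and plots.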

Additional observations from a re-analysis of the deposited data

How the results depend on the processing

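The low minus negative and low minus high differences of all 5 plasma protein genes kept their direction in all 13 alternatives of each comparison, with Afp between 7.49 and 8.07 and between 6.65 and 7.43. In high against negative cells, Ttr turned to -0.97 and Ambp to -0.18 without high replicate 1, and without high replicate 2 they were 1.57 and 2.78, the cause not being tested. The number of these genes called there was 1, or 0 with only the 2 gates in the fit, and 0 to 2 when an array was left out. Arrays of a replicate number showed differences that correlated across genes by 0.079 to 0.103 between gates, and with only 2 numbers the samples were taken to share a number and not a pairing. With the replicate block, high against negative calls numbered 4 for other plasma protein genes, 4 for retinoid genes, 1 for thyroid hormone genes and 2 for regulators, and low against high calls 1 for thyroid hormone genes. For low against negative cells, array weights gave 4 other plasma protein genes and 5 regulators. For high against negative cells, other plasma protein genes numbered 4 among genes above background, and 1 with only the 2 gates, quantile normalization or array weights. Retinoid genes numbered 0 with the trend prior, the 2 gates or quantile normalization, and 1 with array weights. Thyroid hormone genes numbered 1 among genes above background and with quantile normalization. Vitamin D and uptake genes numbered 0 with the trend prior, quantile normalization or array weights, and regulators 2 with only the 2 gates. For low against high cells, other plasma protein genes numbered 4 with the trend prior. Retinoid genes there numbered 1 with the 2 gates or array weights and 2 with quantile normalization. Regulators there numbered 0 with the 2 gates and 1 with arrays centred on their medians. Leaving out an array gave, for low against negative cells, 2 to 4 other plasma protein genes, 1 to 2 retinoid genes, 0 to 1 vitamin D and uptake genes and 0 to 3 regulators. For high against negative cells it gave 0 to 4, 0 to 4, 0 to 0 and 0 to 3 of the same lists, and for low against high cells 2 to 7 other plasma protein genes, 0 to 2 retinoid genes and 0 to 3 regulators. Over all genes, low against negative cells had 681 higher and 507 lower, against 1105 and 1045 with array weights, 148 and 39 on leaving out negative replicate 1, 158 and 39 on leaving out negative replicate 2, 369 and 196 without low replicate 1 and 307 and 110 without low replicate 2. High against negative cells had 272 and 667, against 184 and 377 with the 2 gates, 324 and 297 with quantile normalization, 203 and 417 with array weights, 13 and 2 on leaving out negative replicate 1, 12 and 1 on leaving out negative replicate 2, 601 and 1318 on leaving out high replicate 1, and 273 and 442 on leaving out high replicate 2. Low against high cells had 776 and 202, against 426 and 73 with the 2 gates, 510 and 97 with array weights, 358 and 32 without low replicate 1, 349 and 32 without low replicate 2 and 1201 and 538 without high replicate 1. Signal near background limits what the dimmest genes can show.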
